A study of Mus musculus with 6 samples.

Results

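Barcodes rich in smooth muscle transcripts were chosen by measured transcript counts from single-cell RNA libraries of mouse testis by a rule on raw unique molecular identifiers (UMIs, each marking a captured RNA molecule). A barcode was taken when mitochondrial genes held at most 20% of its UMIs, when Acta2, Myh11, Cnn1, Tagln, Actg2 and Des together gave at least 6 UMIs from at least 3 of these genes, and when this sum was at least as large as that of 8 stromal genes (Dcn, Col1a1, Col1a2, Col3a1, Lum, Pdgfra, Tcf21 and Igf1). The rule found 167 barcodes among the 51794 within the mitochondrial limit. The working label for them was peritubular myoid and smooth muscle cells. They are called muscle-gene barcodes here, because most of them also carried genes of the vessel wall and some were led by other transcripts, as described below.

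The testes came from outbred ICR mice, with no allele or transgene named in the labels. Control mice stayed in a chamber without smoke. Smoking mice were exposed for 12 weeks to cigarette smoke, 30 minutes a day with 15 cigarettes per session, at 1.1 mg nicotine and 11 mg tar per cigarette and a smoke concentration of 3.47 mg/m3. Mice were bought at 6 weeks of age and adapted for 1 week, whereas the age label reads 8 weeks. Each group has 3 libraries of left testis, depleted of dead cells. The labels name 7 mice per group without tying them to libraries, so the spread behind each p-value is that between libraries and may be partly technical.

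Peritubular myoid cells are flat contractile cells that wrap the seminiferous tubule and lay down part of its basement membrane. Vascular smooth muscle cells and pericytes, together called mural cells, wrap arterioles and capillaries in the interstitium between tubules. Both kinds use the smooth muscle actin and myosin apparatus. Its genes are switched on by serum response factor (Srf), which binds a promoter element called the CArG box, together with its coactivator myocardin (Myocd).

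The 6 libraries held 8598 to 9976 deposited barcodes and 39607204 to 78455606 UMIs, with a median of 2512 to 2885 UMIs per barcode within the mitochondrial limit. Muscle-gene barcodes numbered 23, 31 and 27 in control libraries 1, 2 and 3, and 16, 45 and 25 in smoking libraries 1, 2 and 3. No muscle-gene barcode sequence occurred as a member in more than 1 library. In the whole series, 365 of 53886 distinct barcode sequences occurred in at least 2 libraries, and 1 member's sequence was also seen in another library.

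Barcodes of 4 kinds met the rule. Of the 167, 23 met it only through Actg2 and failed it on the other 5 genes. Of the remaining 144, 42 were endothelial-marked, with at least 6 UMIs from at least 3 of 10 endothelial genes (Pecam1, Cdh5, Kdr, Flt1, Egfl7, Emcn, Tie1, Esam, Cldn5 and Vwf). The other 102 are called the core here, a division made after the data were seen. Control libraries 1, 2 and 3 held 14, 15 and 13 core barcodes, and smoking libraries 1, 2 and 3 held 12, 29 and 19. Its median depth was 4661 UMIs, against 15710.5 in the endothelial-marked barcodes and 17718 in those that entered only through Actg2.

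**Figure D1:**
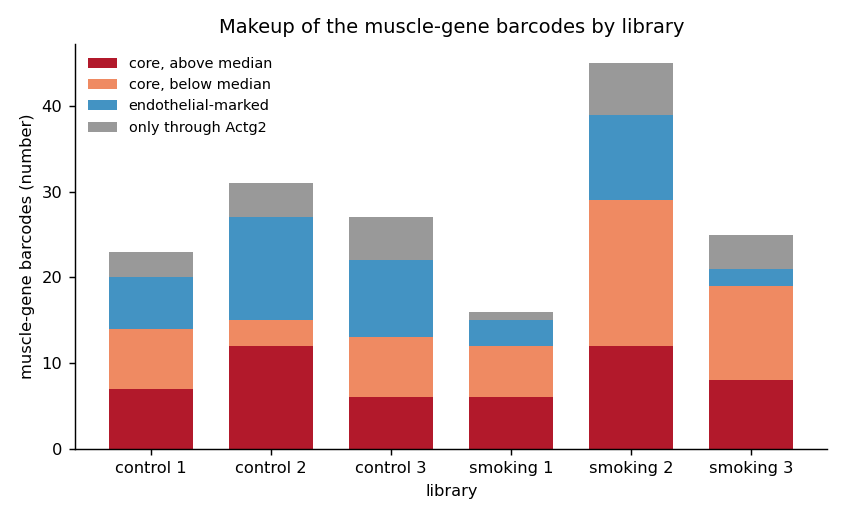
Number of muscle-gene barcodes (vertical axis) in each of the 6 libraries (horizontal axis), stacked by kind: core barcodes above and below the core's median level of 5 muscle genes, endothelial-marked barcodes, and barcodes that entered only through Actg2. Smoking library 2 holds the most, 45, and all 4 kinds are present in every library.

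The endothelial-marked barcodes carried all 10 listed endothelial genes beside the muscle genes. Their 10 endothelial genes summed to 5605 CPM (the UMIs of the genes relative to all UMIs of the same barcodes, on the usual CPM scale), with none of the 10 at 0, against 5216 CPM in 113 endothelial barcodes that did not meet the muscle rule. In the core the same list summed to 198 CPM, with Pecam1, Cdh5, Kdr, Flt1, Egfl7, Tie1 and Cldn5 all at 0. The list itself placed barcodes in or out of these classes, so the sums are a description only. The simulated-doublet caller marked 10 of the 167 muscle-gene barcodes, a share of 5.99%, and 8 of these lay in the core. Over all deposited barcodes the share was 7.25%, a rate set in advance from each library's number of barcodes. The caller marked 0 of the 42 endothelial-marked barcodes, and whether those are 2 cells under 1 barcode was not tested. Macrophage genes summed to 859 CPM in the core, where a single barcode of smoking library 1 gave 446 UMIs. The 7 Leydig genes summed to 32.0 CPM, the 9 Sertoli genes to 84.8 CPM and the 5 red blood cell genes to 5.65 CPM.

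Actg2, the enteric gamma isoform of smooth muscle actin, did not behave like the other genes of the rule. Of its 103412 UMIs, 633 lay in muscle-gene barcodes, a share of 0.612%. The corresponding share was 94.8% for Acta2, the vascular alpha isoform, 86.0% for the smooth muscle myosin heavy chain gene Myh11, 85.9% for the actin-binding transgelin gene Tagln and 79.6% for Des, which encodes the filament protein desmin. Cnn1, which encodes the actin-binding protein calponin, had 34.9% of only 324 UMIs. Outside the muscle-gene barcodes Actg2 stood at 319.8 CPM (exact 95% Poisson interval 317.8 to 321.7), and the libraries ranged from 269 to 367 CPM. Among non-members it reached 401 CPM in barcodes of 20000 to 100000 UMIs, 266 CPM in Sertoli-marked barcodes and 180 CPM in spermatocyte-marked barcodes, where Acta2 stood at 1.30 and 0.592 CPM. In stromal barcodes it was 140 CPM, and in endothelial barcodes 97.7 CPM. The sources used here do not say how reads shared between near-identical actin genes were counted, so the Actg2 values are uncertain.

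**Figure D2:**
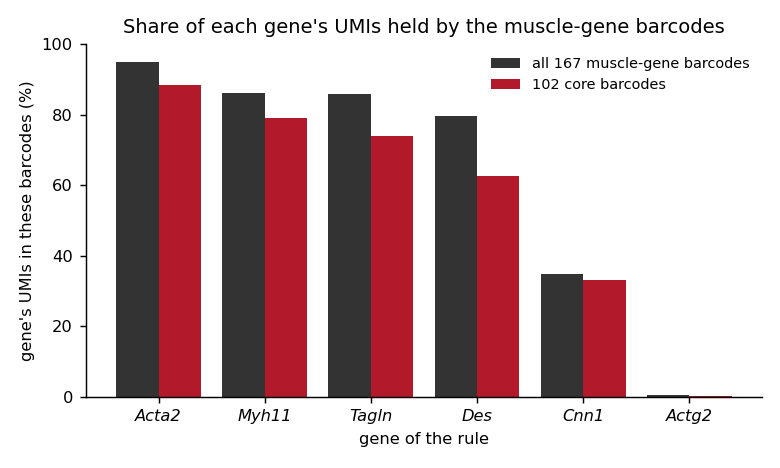
Share of each rule gene's UMIs (vertical axis, percent) that lay in all 167 muscle-gene barcodes and in the 102 core barcodes, for the 6 genes of the rule (horizontal axis). Acta2 reaches 94.8% in all muscle-gene barcodes, whereas Actg2 stays at 0.612%.

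In 10 of the barcodes Actg2 gave most of the muscle sum. Of these, 4 held 229298 to 426582 UMIs each, 1 in each of controls 1, 2 and 3 and 1 in smoking library 3. Together they held 46.3% of all UMIs of the 167 barcodes, so sums over all muscle-gene barcodes are dominated by them in 4 of 6 libraries. Smoking libraries 1 and 2 held none. For this reason the values below are given for the core, with the counts of calls for all 167 beside those of the gene lists described.

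At the edge of the rule, 18 barcodes had 6 to 7 muscle-gene UMIs and 14 had 4 to 5 UMIs from at least 3 genes with all other conditions met. Their median depths were 5150 and 5449 UMIs, and their median vascular mural UMIs 32.5 and 19.5. Another 301 barcodes reached 6 UMIs from only 2 of the genes.

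The label was checked on smooth muscle genes that the rule did not use. In the core, Myl9 (myosin regulatory light chain) stood at 4296 ± 1030 CPM (SD, n = 6 libraries), Mylk (the kinase that activates it) at 1724 ± 307 CPM, Tpm2 (tropomyosin) at 3487 ± 1072 CPM, Cald1 (caldesmon) at 2231 ± 263 CPM, Lmod1 (leiomodin) at 360 ± 86.7 CPM, Smtn (smoothelin) at 213 ± 78.4 CPM and Synpo2 (synaptopodin 2) at 133 ± 36.9 CPM. Myocd had 31 UMIs in the core, 58.4 CPM (exact 95% Poisson interval 39.7 to 82.9), and 0 UMIs in 282 stromal barcodes. The smooth muscle side of the label thus held in the core taken as a sum. All 8 of these genes were lower in core barcodes poorer in muscle-gene UMIs. Above the core's median level of 5 muscle genes, a division described below, Myocd had 27 UMIs, against 4 below it. Synpo2 had 68 and 5 UMIs, Smtn 102 and 15, and Cald1, the least uneven, 850 and 349. The label was not checked separately for the barcodes below the median.

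The peritubular side of the label was checked against genes of the vessel wall. A list of 16 vascular mural genes, among them Rgs5 and Rgs4 (regulators of G protein signalling), Notch3 (a receptor of arterial smooth muscle and pericytes), Pdgfrb (the receptor that recruits mural cells), Higd1b, Cox4i2, Kcnj8, Abcc9 and Mcam, was read in each barcode. At least 3 UMIs from at least 2 of these genes were found in 158 of 167 muscle-gene barcodes, a share of 94.6% (exact Clopper-Pearson 95% interval 90.0 to 97.5%). The share was 13.1% in stromal barcodes, whose median depth of 4320 UMIs is near the core's, 32.7% in endothelial barcodes and 1.495% in all other barcodes. After every barcode was thinned to 2000 UMIs, which left out 7 stromal barcodes and 5094 of the others and no muscle-gene barcode, it was 76.6% in muscle-gene barcodes, 1.82% in stromal, 16.8% in endothelial and 0.219% in all other barcodes. Thinned core barcodes were marked in 76.5% of cases (78 of 102). Before thinning, 9 muscle-gene barcodes were not marked, too few to test against the rest. The 16 genes differed in how far they were confined to muscle-gene barcodes. These barcodes held 72.7% of all Notch3 UMIs and 64.1% of Rgs5 UMIs. The share was 23.2% for Cspg4, 5.47% for Steap4 and 2.79% for Ndufa4l2. Marked barcodes were not counted again without the less confined genes.

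Several genes of testicular mesenchyme were scarce in the core. Cyp26b1, a retinoic acid-degrading enzyme, gave 0 UMIs in the core, where 3 UMIs would be 5.65 CPM, and 645 ± 222 CPM in stromal barcodes. Gdnf, a growth factor for spermatogonial stem cells, gave 0 UMIs in the core and 1 in stromal barcodes. The hedgehog receptor gene Ptch1 stood at 7.53 CPM in the core (4 UMIs) against 64.2 CPM in stromal barcodes, and the hedgehog target Gli1 at 5.65 CPM (3 UMIs) against 21.9 CPM.

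The 6 rule genes chose the barcodes, so their levels are a description only. In core sums, Acta2 (chromosome 19, 34241090 to 34255590 on the minus strand of GRCm38, protein-coding) stood at 8566, 14368 and 12944 CPM in control libraries 1, 2 and 3, and at 8222, 8267 and 12881 CPM in smoking libraries 1, 2 and 3. Tagln stood at 5731, 7332 and 7616 CPM in the control libraries and at 5135, 4275 and 7018 CPM in smoking libraries. Myh11 stood at 2421, 3149 and 3230 CPM in the control libraries and at 2271, 2677 and 2423 CPM in smoking libraries. In all 3 genes the groups overlapped. Des lay between 867 and 1188 CPM and Cnn1 between 126 and 416 CPM over the 6 libraries. Actg2 lay between 237 and 666 CPM in the core, a range that takes in its 269 to 367 CPM outside the muscle-gene barcodes. Since 3′ libraries count molecules and not length, these CPM values were not divided by gene length.

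Promoter sequences were searched for the CArG box, the element bound by Srf. The box has the form of 2 C, 6 A or T and 2 G, reads alike on both strands, and was allowed 1 G or C among the central 6 bases. RefSeq promoters (GRCm38.p6) were at hand for 5 of 8 genes, namely Acta2, Cnn1, Des, Rergl and Rgs5. In the 250 bases before the start, Acta2 held 2 boxes and Rergl held 1, while Cnn1, Des and Rgs5 held none in this window. Of all 32851 promoters in that table, 8.59% held at least 1 such box, 0.670% at least 2, and 1.47% a box with no G or C inside. The 3 boxes are shown in 30-base windows, 5′ to 3′ on the gene's strand, with the box in capitals.
Acta2, 84 bases before the start, chr19:34255438-34255467, minus strand: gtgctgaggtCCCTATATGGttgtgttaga
Acta2, 34 bases before the start, chr19:34255388-34255417, minus strand: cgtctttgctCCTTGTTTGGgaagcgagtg
Rergl, 49 bases before the start, chr6:139501939-139501968, minus strand: acaaggacagCCATAAAAGGcactttcaaa
GENCODE places the 3 windows in first exons, as 5′ UTR, of Acta2 and Rergl transcripts that start further upstream than the RefSeq ones. A match is a sequence description and no measure of binding.

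Core barcodes spread over a wide range of muscle-gene content. The sum of Acta2, Myh11, Cnn1, Tagln and Des ran from 13.7 to 516 UMIs per 10000, with a median of 134.7, and 10 of the 102 barcodes lay within 1.2 times of that median. The core was divided at the median into 51 barcodes above and 51 below, a range and not a pair of cell types, and since the division used these genes no test was made. Above the median, Acta2 stood at 17006 CPM, Tagln at 8604 CPM, Myh11 at 4236 CPM and Des at 1337 CPM. Below it they stood at 1603, 2182, 543 and 530 CPM. Cnn1 was at 343 CPM above and at 0 UMIs below, at least 25.1-fold higher against the floor of 3 counts over the 51 barcodes. Actg2 was at 552 CPM above (exact 95% Poisson interval 472 to 640) and at 146 CPM below (99.9 to 206).

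Genes not used in the division also differed between these barcodes, in every library. Among the genes with the largest ratios above the median were Sorbs2 (571 CPM above and 0 UMIs below, at least 41.7-fold higher), Palld (988 and 32.0 CPM), Csrp2 (872 and 36.5 CPM), Vim (3970 and 256 CPM), Mustn1 (1289 and 110 CPM), Fbxl22 (587 and 45.7 CPM) and Rergl (574 and 45.7 CPM). Sorbs2 and Palld encode scaffold proteins of actin filaments, Csrp2 a LIM-domain protein of smooth muscle and Vim the filament protein vimentin. Tpm2 was 5320 CPM above and 680 CPM below the median.

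Below the median, a different set was high in every library. Vtn (vitronectin) stood at 260 CPM below and 9.62 CPM above. Abcc9, the regulatory subunit of a potassium channel of pericytes, stood at 256 and 6.41 CPM, and Rgs5 at 2397 and 452 CPM. Apoe (apolipoprotein E) stood at 1959 and 12.8 CPM and Selenop (a selenium carrier protein) at 516 and 16.03 CPM, but 1 barcode of smoking library 1, which was not called a doublet and held 446 of the 448 macrophage-list UMIs below the median, gave 389 of the 429 Apoe UMIs and 88 of the 113 Selenop UMIs there. Without it, an alternative chosen after seeing the data, Apoe was 194 CPM and Selenop 121 CPM below the median, and the summed macrophage list was 9.70 CPM instead of 2045 CPM (25.7 CPM above the median). Rgs5, Vtn and Abcc9 were 2494, 272 and 272 CPM without it. The endothelin receptor gene Ednrb was at 228 CPM below and 44.9 CPM above, whereas the other endothelin receptor gene, Ednra, was at 59.4 and 57.7 CPM.

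By list, 24 of 31 contractile genes with at least 20 UMIs were higher above the median in all 6 libraries and 1 was higher below it. Of 14 vascular mural genes with 20 UMIs, 8 were higher below the median in all 6 libraries and 2 above it. Over all 4688 genes with 20 UMIs, 7.87% were higher above and 5.99% higher below in all 6 libraries. All 10 abundant spermatid transcripts (Prm1, Tnp1 and others) were higher below the median when pooled, by 1.28 to 2.11 times, and 7 of them in all 6 libraries. After thinning to 2000 UMIs, vascular genes marked 29 of 51 barcodes above the median (56.9%) and 49 of 51 below it (96.1%). The median depth was 5782 UMIs above and 3982 UMIs below. The part of free RNA, depth and macrophage RNA in the other differences was not tested.

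**Figure D3:**
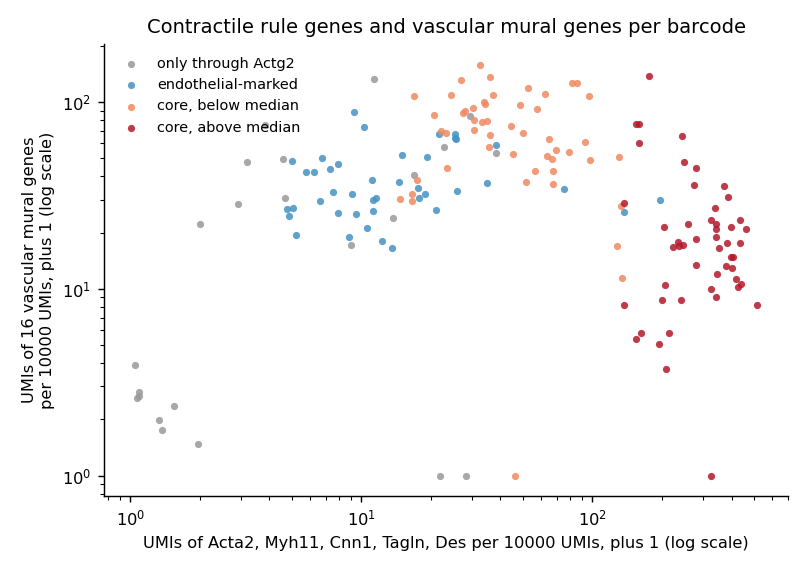
Each point is 1 muscle-gene barcode: UMIs of 5 rule genes per 10000 UMIs plus 1 (horizontal, log scale) against UMIs of 16 vascular mural genes per 10000 UMIs plus 1 (vertical, log scale), coloured by kind. Core barcodes above the median carry a median of 16.2 vascular UMIs per 10000 and those below it 67.6, while a group at the lower left entered through Actg2.

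Rgs5 showed this opposite arrangement in each library. Below the median it stood at 2302, 2342 and 2148 CPM in control libraries 1, 2 and 3, and 2739, 2347 and 2483 CPM in smoking libraries 1, 2 and 3. Above the median it stood at 27.0, 291 and 973 CPM and at 359, 607 and 271 CPM in the same order, so the 2 sets did not overlap. Notch3 was 460, 390 and 205 CPM below the median in the control libraries and 206, 535 and 536 CPM in smoking libraries. Above it, Notch3 was 81.0, 131 and 284 CPM and 120, 114 and 90.5 CPM, so these ranges overlapped, with 5 of 6 libraries higher below the median.

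The next question was how the core differs from the stromal barcodes of the same testes, which met the mirrored rule on the 8 stromal genes (282 barcodes). Counts were summed per library and tested with edgeR's quasi-likelihood test with the library as a block and Benjamini-Hochberg adjustment over all tested genes. Genes of either rule were left out of the counts. In the core, 362 of 2629 genes were higher and 288 lower than in stromal barcodes at an adjusted p under 0.05, which is 13.8% and 11.0%, or 24.7% in either direction. With all 167 muscle-gene barcodes, 153 of 5031 genes were higher (3.04%) and 408 lower (8.11%), 11.2% together. The 2 fits shared 253 called genes, 45.1% of the calls with all barcodes and 38.9% of those in the core, and 251 of them had the same sign.

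Against stromal barcodes, the contractile genes were higher as a group: 26 of 30 tested passed and 1 was lower, with a median log2 fold of 2.72, against −0.05 over all 2629 genes. Tpm2 rose from 54.6 ± 15.95 CPM in stromal barcodes to 3487 ± 1072 CPM in the core (log2 fold 5.92 ± 0.20 SE, edgeR adjusted p = 1.4e-26). Myl9 rose from 168 ± 76.4 to 4296 ± 1030 CPM (log2 fold 4.77 ± 0.18, edgeR adjusted p = 2.2e-25). Mylk, Tpm1, Flna (the actin cross-linker filamin A), Myl6 and Csrp1 rose by log2 folds of 3.98, 4.13, 3.81, 2.92 and 2.14. Lmod1, Cald1, Smtn and Synpo2 also rose, Synpo2 from 0 UMIs to at least 62.8-fold over the floor. Fhl2, a LIM-domain cofactor, fell by 2.29 on the log2 scale, and Tpm4, Tagln2 and Zyx missed the threshold. With all 167 barcodes, 10 of 27 contractile genes were higher and 1 lower, Lmod1 (log2 fold −0.04) and Cald1 (−0.10) lost both call and direction, and Smtn (1.32) and Csrp1 (0.29) lost the call.

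Of the 16 vascular mural genes, 10 had enough counts to be tested against stromal barcodes. All 10 were higher in the core, with a median log2 fold of 6.13, where 13.8% of all genes were called higher. Gja4 and Mcam, at 0 UMIs in stromal barcodes, entered the fit only through their core counts. Rgs5 (chromosome 1, 169655501 to 169695813, plus strand) stood at 1228 ± 335 CPM against 2.77 ± 6.78 CPM (log2 fold 8.05 ± 0.35, edgeR adjusted p = 3.3e-16), higher in 6 of 6 libraries. Gja4, a gap junction connexin gene of vessels, had 0 UMIs in stromal barcodes and 222 ± 63.4 CPM in the core, at least 101-fold higher. Higd1b, Cox4i2, Rgs4, Notch3 and Pdgfrb had log2 folds of 6.34, 6.40, 5.92, 5.63 and 2.96. With all 167 barcodes 8 of 11 were higher and none lower.

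Outside the lists, several genes high in the core were at or near 0 in stromal barcodes. Pcp4l1, a relative of the calmodulin regulator gene Pcp4, had 368 UMIs in the core and 0 in stromal barcodes, at least 317-fold higher. Rergl, a small GTPase gene (chromosome 6, 139492973 to 139501976, minus strand), had 189 UMIs and was at least 163-fold higher. Sncg (gamma-synuclein) was at least 119-fold and Npy1r, the receptor for the vasoconstrictor neuropeptide Y, at least 102-fold higher. Fbxl22, Aspn, Rcan2 and Rrad rose by log2 folds of 7.21, 6.29, 6.23 and 6.06. Each of these 8 genes was higher in 6 of 6 libraries.

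Genes lower in the core than in stromal barcodes included 9 with 0 UMIs in the core beside Cyp26b1. Ly6a was at 636 ± 119 CPM in stromal barcodes, Htra3 at 427 ± 96.0 CPM, Dpep1 at 357 ± 74.5 CPM, Slc38a5 at 323 ± 111 CPM and Osr1, a transcription factor of embryonic mesenchyme, at 301 ± 59.8 CPM. C3, Gsta2, Efemp1 and the prolactin receptor gene Prlr were at 274, 239, 229 and 217 CPM. Against the core's floor, Ly6a was at least 109-fold and Cyp26b1 at least 103-fold higher in stromal barcodes.

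**Figure D4:**
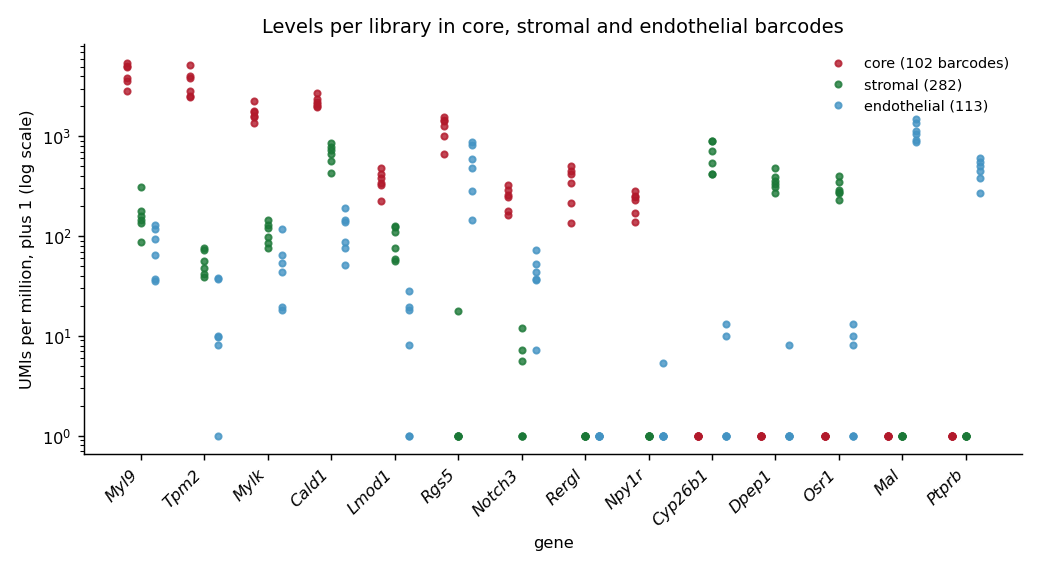
CPM plus 1 (vertical, log scale) for 14 genes (horizontal) in core, stromal and endothelial barcodes; each point is the sum of 1 library. Tpm2 lies between 2449 and 5181 CPM in the core, above every stromal and endothelial library, while Cyp26b1 is at 0 in every core library.

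Of the 25 calcium and relaxation genes, 8 had enough counts to be tested against stromal barcodes. Their median log2 fold was 2.10, against −0.05 over all genes. Only Rhoa missed the threshold, and the other 7 were higher in the core, where 13.8% of all genes were called higher. They included both subunits of the nitric oxide receptor, Gucy1a1 (622 ± 116 against 118 ± 54.1 CPM) and Gucy1b1 (197 ± 78.8 against 12.1 ± 6.01 CPM), the cGMP-dependent kinase Prkg1 (log2 fold 1.35) and the cGMP phosphodiesterase Pde5a (2.88). In the fit of all 167, 2 of 10 such genes were higher and 1 lower, and Gucy1a1 (0.86) and Pde5a (1.19) were not called. Kcnmb1, the beta subunit of the large-conductance potassium channel of smooth muscle, had 48 UMIs in the core and 0 in stromal barcodes, too few to enter the fit.

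Among 11 transcription factors tested, Mef2c, Nr2f2, Nr4a1, Prrx1 and Mef2a were higher in the core, 5 in all, and 2 were lower, Klf4 among them. With all 167, 1 of 13 was higher (Mef2c) and 2 lower. Mef2c, a muscle differentiation factor, rose from 37.3 ± 20.5 to 633 ± 76.9 CPM (log2 fold 4.20 ± 0.23, edgeR adjusted p = 5.5e-19). Nr2f2, a nuclear receptor of venous and stromal cells, and Prrx1, a mesenchymal homeobox factor, had log2 folds of 1.198 and 1.194. In the fit of all 167 barcodes these 2 had the opposite sign and were not called (−0.37 and −0.20). Klf4 fell by 0.82 on the log2 scale, and was not called with all 167 (−0.51). Ebf1 was 437 ± 149 CPM in the core and 477 ± 118 CPM in stromal barcodes and was not called (edgeR adjusted p = 0.81).

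Basement membrane genes were divided, with 5 higher and 4 lower of 13 tested. The type IV collagen genes Col4a1 and Col4a2 rose by log2 folds of 1.00 and 1.65, the collagen XVIII gene Col18a1 by 3.05 and the collagen receptor subunit Itga1 by 1.03, and the fifth was Itgb1. The laminin gene Lama2 fell by 3.38 on the log2 scale, from 437 ± 89.0 to 36.4 ± 19.5 CPM, Lamb1 (another laminin chain) by 4.26, Col15a1 by 4.66 and Nid1 (nidogen) by 0.74. The Nid1 call (edgeR adjusted p = 0.033) was lost without control library 2 (0.18), control library 3 (0.054) or smoking library 3 (0.10). Sparc stood at 1287 ± 322 CPM in the core and 1549 ± 624 CPM in stromal barcodes and was not called. In the fit of all 167, 1 of 15 was higher (Col18a1) and 6 lower, and Col4a1, Col4a2 and Itga1 were not called (log2 folds 0.21, 0.79 and 0.23), and Sparc had the opposite sign (0.33).

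Other matrix genes were mostly lower in the core, 7 of 8 tested. The higher one was Timp3, an inhibitor of matrix proteases, which rose from 72.7 ± 20.01 to 915 ± 203 CPM. Mgp, which encodes matrix Gla protein, fell by 7.59 on the log2 scale, from 2717 ± 304 to 12.3 ± 13.03 CPM. With all 167, 1 of 14 matrix genes was higher and 12 lower. Of 12 paracrine genes tested, Pdgfrb and Igfbp7 were higher (2) and Cyp26b1, Aldh1a1, Cxcl12, Csf1 and Tgfbr3 lower (5). Aldh1a1, which makes retinoic acid, fell by 4.18 on the log2 scale and Csf1, a macrophage growth factor, by 3.83. The chemokine gene Cxcl12 fell by 2.61, whereas with all 167 barcodes it had a log2 fold of 0.93 and was not called, and 1 of 16 paracrine genes was higher (Pdgfrb) and 4 lower. Of 14 immediate early genes, which are known to respond to tissue dissociation, 6 were higher in the core and none lower, Fosb among them (log2 fold 0.73, edgeR adjusted p = 0.032, against −0.37 with all 167). That call was lost without control library 2 (0.078), control library 3 (0.081) or smoking library 2 (0.12). Atf3 rose by 2.17 in the core and was not called with all 167 (0.86). With all 167, 0 of the 14 were called in either direction and their median log2 fold was −0.03. The part of dissociation was not tested. The only hedgehog gene tested, Gas1, fell by 2.43, and of 10 smoke-response genes 3 (Gsta4, Gstm1 and Prdx1) were lower and none higher, against 1 lower of 14 (Gstm1) with all 167.

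Endothelial barcodes (113, which met the same minimum on the 10 endothelial genes and whose endothelial sum exceeded their muscle sum) served as the second comparison. In the core, 241 of 1728 genes were higher (13.9%) and 333 lower (19.3%), 33.2% together. With all 167 barcodes, 382 of 3387 were higher (11.3%) and 360 lower (10.6%), 21.9% together. The 2 fits shared 228 calls, 30.7% of those with all barcodes and 39.7% of those in the core, all of the same sign.

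Contractile genes again stood higher, 21 of 23 tested in the core with a median log2 fold of 2.91 (0.06 over all genes), Sorbs2 missed the threshold, and Tagln2, a transgelin of non-muscle cells, fell by 1.10 on the log2 scale. With all 167, 10 of 22 contractile genes were higher and 1 lower. Tpm2 had a log2 fold of 7.54 ± 0.20 (edgeR adjusted p = 2.1e-20). Myl9, Lmod1, Mylk, Cald1, Tpm1 and Flna had log2 folds of 5.64, 5.01, 4.96, 4.37, 4.35 and 4.32. Palld, Mustn1, Pdlim3, Map3k20 and Pde3a, a cyclic nucleotide phosphodiesterase of vascular muscle, had 6.91, 5.86, 4.75, 4.36 and 4.24. Rergl had 0 UMIs in endothelial barcodes and was at least 95.9-fold higher in the core.

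Of the 16 vascular mural genes, 9 had enough counts to be tested against endothelial barcodes. In the core 8 of these were higher and none lower, where 13.9% of all genes were called higher. With all 167, 3 of 11 were higher (Notch3, Ndufa4l2 and Higd1b). By mean level Kcnj8 went the other way, at 72.0 ± 69.2 CPM in the core and 111 ± 72.0 CPM in endothelial barcodes. Notch3 was 242 ± 61.4 against 40.8 ± 21.7 CPM (log2 fold 2.66 ± 0.33, edgeR adjusted p = 2.0e-07). Rgs5 was 1228 ± 335 against 530 ± 287 CPM, higher in 6 of 6 libraries, but was not called (log2 fold 1.32 ± 0.45, edgeR adjusted p = 0.078). It was called without control library 3 (edgeR adjusted p = 0.028) and by DESeq2 (adjusted p = 0.00021). Gucy1a1, Pde5a, Mef2c and Nr2f2 had log2 folds of 2.90, 3.98, 1.63 and 1.83, of which Mef2c (0.17) and Nr2f2 (0.40) were not called with all 167.

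Several of the genes with the largest falls against endothelial barcodes had 0 UMIs in the core. Mal was at 1135 ± 239 CPM in endothelial barcodes and 0 UMIs in the core, at least 207-fold higher in the former. Ly6c1, Ptprb (an endothelial phosphatase), Abcb1a (a drug efflux pump), Car4, Mfsd2a (a lipid transporter), Slco1a4, Sox18 and Ly6e also had 0 core UMIs, at 248 to 644 CPM in endothelial barcodes, and Ctla2a had 2 core UMIs against 1177 ± 164 CPM. In the fit of all 167, Mal was not called (log2 fold −1.37). Cxcl12 fell by 5.17 on the log2 scale and Sparc by 1.65, and Sparc was not called with all 167 (−1.10).

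Against all 51627 other barcodes, mostly germ cells, 3028 of 15970 genes were higher in the core (19.0%) and 5193 lower (32.5%), 51.5% together, with a median log2 fold over all genes of −0.81. With all 167 barcodes, 2940 of 16534 were higher (17.8%) and 3676 lower (22.2%), 40.0% together. All 32 contractile genes and all 16 vascular mural genes were called higher in both fits. Spermatid transcripts were still abundant in the core, where the 10 genes summed to 45220 CPM, against 55862 CPM in stromal and 46473 CPM in endothelial barcodes.

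Smoke exposure was read mainly as pooled values, because libraries held 16 to 45 muscle-gene barcodes each. The share of muscle-gene barcodes was 0.319 ± 0.0413% in the control libraries against 0.324 ± 0.169% in the smoking libraries (SD, n = 3 each), and an exact two-sided permutation test over the 6 libraries gave p = 1, where the smallest p this design allows is 0.1. For the core the shares were 0.166 ± 0.0103% and 0.226 ± 0.0958% (exact permutation p = 0.4). Smoking library 2 was the highest, at 0.514% of all barcodes, and smoking library 1 the lowest, at 0.192%.

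The makeup of the muscle-gene barcodes differed between the groups without overlap in 2 of 4 shares compared. Endothelial-marked barcodes made up 30.0, 44.4 and 40.9% of those that met the rule without Actg2 in control libraries 1, 2 and 3, and 20%, 25.6% and 9.52% in smoking libraries 1, 2 and 3 (exact permutation p = 0.1, 0.2 after Benjamini-Hochberg adjustment over 4 shares). The pooled shares were 27 of 69, or 39.1% (exact 95% binomial interval 27.6 to 51.6%), and 15 of 75, or 20% (11.6 to 30.8%). Core barcodes made up 51.9% of muscle-gene barcodes in controls and 69.8% in smoking libraries, also with exact permutation p = 0.1 and adjusted p = 0.2. The 2 shares are not separate results, since each barcode that met the rule without Actg2 was either endothelial-marked or core. Shares that entered only through Actg2 (14.8 and 12.8%) and that lay above the median within the core (59.5 and 43.3%) overlapped between groups. These intervals cover counting error only.

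**Figure D5:**
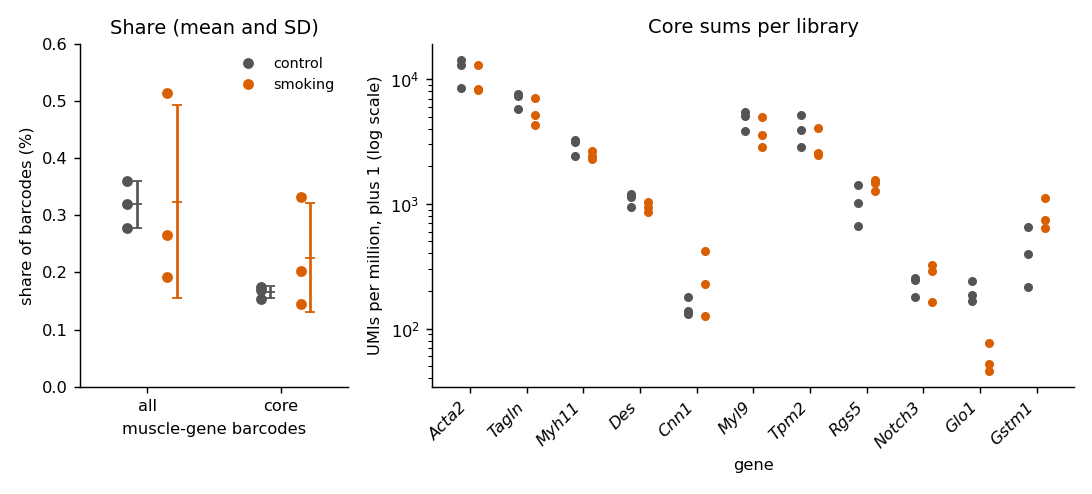
Left, share of barcodes (percent) in each library for all muscle-gene barcodes and the core, with mean and SD beside the points; right, core sums per library in CPM plus 1 (log scale) for 11 genes. Control and smoking libraries overlap in both shares and in most genes, while Glo1 lies at 165 to 238 CPM in controls and 44.5 to 75.3 CPM in smoking libraries.

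Pooled over libraries, core Acta2 was 12217 CPM in controls (exact 95% Poisson interval 11767 to 12679) and 9471 CPM in smoking mice (9127 to 9824), Tagln 6972 and 5188 CPM, and Myh11 2969 and 2520 CPM. Cnn1 was 149 CPM (103 to 208) and 241 CPM (189 to 303). Rgs5 was 1022 CPM (895 to 1162) and 1430 CPM (1298 to 1571), and Notch3 224 and 277 CPM. For each of these 6 genes the control and smoking libraries overlapped, a spread the pooled intervals do not include. Read separately, Acta2 was 16807 ± 2855 CPM in control and 17177 ± 4176 CPM in smoking libraries above the core median, and 1602 ± 795 and 1615 ± 379 CPM below it (SD, n = 3 each). Barcodes above the median made up 59.5% of the pooled control core and 43.3% of the pooled smoking core. Acta2 is part of the sum that set the median, which limits how far it can differ on each side. Whether this makeup accounts for the pooled difference was not tested. In sums over all 167 barcodes the direction of Acta2 was the opposite, 1839 CPM in controls and 2724 CPM in smoking mice, where large Actg2-led barcodes sat in all 3 control libraries and in 1 smoking library.

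Across libraries, no gene passed an adjusted p under 0.05 for smoke exposure. edgeR called 0 of 1453 genes in the core and 0 of 7071 with all 167 barcodes (0% in both), with 60 and 192 genes at an unadjusted p under 0.05. DESeq2 called 0 in both as well, with 19 and 169 genes at an unadjusted p under 0.05. All 28 contractile genes tested in the core missed the threshold, with a median log2 difference of −0.21, as did 11 vascular mural genes (0.30) and 7 smoke-response genes (0.06), against 0.003 over all genes.

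Core genes with the smallest p and at least 100 CPM are given as values. Glo1, an enzyme that detoxifies methylglyoxal, was 184, 238 and 165 CPM in control libraries 1, 2 and 3, and 44.5, 51.4 and 75.3 CPM in smoking libraries 1, 2 and 3 (log2 difference −1.73 ± 0.43 SE, edgeR adjusted p = 0.913). The groups did not overlap in the core. In stromal barcodes Glo1 was 156 ± 60.4 CPM in controls and 125 ± 68.1 CPM in smoking libraries, and in endothelial barcodes 180 ± 128 and 177 ± 90.2 CPM, with overlap in both. Gadd45g, a stress-induced growth arrest gene, was 287 ± 73.0 and 119 ± 26.6 CPM. Gstm1, a glutathione transferase, was 420 ± 218 and 833 ± 252 CPM. Sept7 and Cd164 had log2 differences of 0.82 and 1.36, and the respiratory chain genes Ndufa11 and Cox7a2l of −0.85 and −0.83. All had edgeR adjusted p = 0.963 except Glo1, and in the fit of all 167 Gadd45g, Ndufa11 and Cox7a2l had the opposite sign (0.23, 0.22 and 0.24). Several of these genes also differed across the core's median with both groups pooled. Glo1 was 144 CPM above and 77.6 CPM below it, Gadd45g 231 and 119 CPM, and Gstm1 327 and 1100 CPM. Sept7 was 327 and 1004 CPM and Cd164 106 and 146 CPM. The part of the core's makeup in the smoke differences was not tested.

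Several classical smoke-response genes were sparse. In the core the aryl hydrocarbon receptor target Cyp1b1 had 1 UMI in each group, Nqo1 had 1 and 2, and Hmox1 (heme oxygenase) had 0 and 5, where 0 control UMIs allow up to 16.2 CPM. Mt1, a metallothionein gene, was 2105 CPM in controls (1921 to 2302) and 1387 CPM in smoking mice (1257 to 1526) when pooled. By library it was 2078 ± 628 and 1379 ± 34.4 CPM, without overlap, and it was not called (log2 difference −0.54, edgeR adjusted p = 0.963). At this depth a change in the sparse genes was not detectable.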

How the data were processed

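Single-cell RNA libraries (10x Genomics 3′ protocol, per the labels) of mouse testis, 3 control and 3 smoking, were analysed. The authors deposited unnormalized UMI counts of 30905 genes for each barcode, made with Cell Ranger against mm10. Its version is 3.1.0 per the file headers and 7.1.0 per the submitters' processing notes, which also name CASAVA 1.8. No column was left unused (0). Libraries held 39607204 to 78455606 UMIs.

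Members and gene lists were chosen with earlier results of these data known. Counts were summed per library and class and tested with edgeR 4.0.16 (R 4.3.3; TMM, filterByExpr, robust quasi-likelihood, library as block between classes, Benjamini-Hochberg threshold 0.05). DESeq2 1.42.0 was an alternative. The design set all muscle-gene barcodes as the main sample, and the core was added after seeing the data. A planned test of vascular-marked against other members was not made, since 9 were not marked. Named genes were, per comparison, up to 15 higher and 10 lower with the largest folds, a mean of at least 100 CPM and the same direction in every library, 8 genes of smallest p for smoke, and list members by level and fold; further genes, such as Timp3, Mt1 and those high above or below the core's median, were named after their values were seen. A few genes are not reported here. On simulated data, 97.5% (smoke, 1453 genes) and 99.5% (stromal, 2642 genes) of 200 genes changed by a log2 fold of 2 were recovered. False calls numbered 10 (4.88% of calls) and 3 (1.485%). An adjusted threshold is easier to pass with 200 changed genes than with few. The recovery is therefore no measure of power in the smoke comparison. Doublets were called from simulated barcode pairs within each library (2000 genes, 30 components, 50 neighbours) and kept. Shares were tested by exact permutation over 20 assignments of libraries. Intervals are exact at 95% and cover counting error only, and the floor for 0 UMIs is 3 counts over the pooled class. Barcodes were thinned to 2000 UMIs with seed 1. Python 3.11.15, numpy 2.4.6, scipy 1.17.1, pandas 2.3.3 and matplotlib 3.10.9 were used.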

Additional observations from a re-analysis of the deposited data

How the results depend on the processing

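The smoking minus control difference in the share of muscle-gene barcodes (0.00468 percentage points) changed sign with at least 10 UMIs (−0.0195), at least 4 UMIs (−0.0202), a mitochondrial limit of 10% (−0.0153) and at least 4 genes (−0.0363), and ran from −0.0904 without smoking library 2 to 0.0705 without smoking library 1. Of calls with all barcodes, the smoke comparison had 29 without the count filter, and 0 to 4060 leaving out each library; the 4060 arose without smoking library 3, after which only control libraries held a barcode of over 100000 UMIs. Against stromal barcodes the 561 calls became 2284 with no filter, 874 without doublets, 1954 without Actg2 in the rule and 1076 with no replicate block, and 320 (without control library 3) to 1651 (without smoking library 1) leaving out each library. Against endothelial barcodes the 742 calls became 1996 with no filter, 280 without doublets, 1220 with at least 10 UMIs and 443 without Actg2 in the rule, 747 with no replicate block, and 12 (without control library 3) to 1685 (without smoking library 1). Against all others the 6616 calls became 11461 without Actg2 in the rule. The cause of these shifts was not tested.

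In the core, calls numbered 650 against stromal barcodes (479 to 638 leaving out each library, 665 with no replicate block, 1455 with no filter), 574 against endothelial barcodes (441 to 628, 566 and 1521) and 0 for smoke (0 to 0, and 3 with no filter). The library pairs both sums by construction. The core was not fitted again without called doublets, of which it held 8. With all barcodes in place of the core, signs reversed for Lmod1 (−0.041), Cald1 (−0.10), Nr2f2 (−0.37), Prrx1 (−0.20), Sparc (0.33), Cxcl12 (0.93) and Fosb (−0.37) against stromal barcodes, and for Gadd45g (0.23), Ndufa11 (0.22) and Cox7a2l (0.24) for smoke. Ebf1, not called, ran from −0.28 to 0.060 leaving out each library. Sparse genes in 102 core barcodes are limited by depth.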
